A study of Mus musculus with 12 samples.

Results

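Granulocytes were compared with myelocytes, the stage just before them in the sort used here, over 3 Affymetrix Mouse Gene 1.0 ST arrays for each population. Both were sorted by the study from the bone marrow (femur, tibia and spine) of untreated C57BL/6 mice. Both gates took cells without lineage antigens (B220, CD3 and Sca1 among them) and low in cKit and CD34 but positive for CD16/32, and only the intensity of Gr-1 staining divided them, which was intermediate for myelocytes and high for granulocytes. The comparison therefore joins 6 of the 12 arrays of the series, and the other 6 hold LSK cells (Lin- Sca1+ cKit+ stem and progenitor cells) and promyelocytes, the cKit+ CD34+ granulocyte precursors that come before myelocytes. The age of the mice was not found in the sources used here. The arrays within a population are labelled biological replicates, but separate animals are not stated. The p-values therefore rest only on how far arrays of the same population spread, and that spread may be technical. After a rule that kept 1 array row for each gene, 19937 genes were compared. In what follows a difference is granulocytes minus myelocytes on the log2 scale with its standard error, from limma with 3 arrays per group. The spread behind the standard errors and p-values was estimated within populations over all 12 arrays, LSK cells and promyelocytes included. A gene is said to have risen or fallen where its Benjamini-Hochberg adjusted p was under 0.05 and its fold at least 2. A level at or under 4.51, the 95th percentile of 1194 olfactory and vomeronasal receptor genes, is called dim, and no fold is given for a gene whose mean was dim in either group.

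Neutrophils form in the marrow through stages that differ in what they make. Promyelocytes make the primary granules, which carry myeloperoxidase and serine proteases. Myelocytes are the last stage that divides and make the secondary granules with lactoferrin and cathelicidin, and the later metamyelocyte, band and segmented cells no longer divide, add gelatinase granules and secretory vesicles, and gain the receptors with which a neutrophil finds and engulfs microbes. The Gr-1 antibody binds the products of the Ly6g and Ly6c genes, so these set the gate and are no finding. Ly6g stood at 12.39, 12.31 and 12.22 on myelocyte arrays 1, 2 and 3 and at 12.41, 12.33 and 11.99 on the granulocyte arrays, which overlapped.

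The identity of the cells was checked on genes of late granulopoiesis. Lactoferrin, Ltf, was at 13.14, 13.12 and 13.18 in myelocytes and at 12.94, 12.86 and 12.82 in granulocytes, against a mean of 8.28 in promyelocytes. The interleukin 8 receptor gene Cxcr2 was at 10.83, 10.73 and 10.58 in myelocytes and at 12.42, 12.29 and 12.20 in granulocytes, with a promyelocyte mean of 6.71. Both labelled populations thus carried late neutrophil messages at levels far above those of promyelocytes. Across genes, which are not independent replicates, a myelocyte and a granulocyte array correlated at 0.947 to 0.962, arrays within myelocytes at 0.986 to 0.991 and arrays within granulocytes at 0.987 to 0.991. The 75th percentile of an array was 6.88 to 6.92 in myelocytes and 6.71 to 6.76 in granulocytes. Before any result, the order of the myelocyte arrays has to be described, beginning with array 1. Myelocyte array 1 was the highest of the 3 myelocyte arrays for 11 of 12 basophil and mast cell markers, 14 of 18 monocyte markers and 8 of 13 dendritic cell markers, and the lowest for 43 of 45 mitosis genes, 46 of 47 DNA replication genes and 19 of 31 E2F factors, cyclins and inhibitors. Its place as the highest was not particular to the marker genes. It was also the highest for 20 of 23 genes of integrins, selectins and adhesion, and the lowest for 1. For actin and motility genes it was the highest for 26 of 34 and the lowest for 3. Myelocyte array 3 was the lowest for 9 of 12 basophil and mast cell markers and 15 of 18 monocyte markers, but for 2 of 45 mitosis genes. The share over all genes was not counted for either array. Calls did not depend on array 1 alone. Among 382 called genes that were named or in a list, 23 lost their call without myelocyte array 1. Without myelocyte array 3 the number was 33, and without granulocyte array 3 it was 40. Differences that moved by over 1.5 times without myelocyte array 1 are given both ways. In bulk RNA, fewer cells of a type and less RNA per cell cannot be told apart, which holds for each difference below.

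In granulocytes 469 genes were higher than in myelocytes (2.35% of those tested) and 1188 were lower (5.96%), which together made 8.31%. The arrays of the groups did not overlap for 469 of the higher and 1178 of the lower genes, and of all genes tested 24.4% had all granulocyte arrays above all myelocyte arrays and 19.8% the reverse. Among the called genes, 98 rose and 222 fell by 4-fold or more, and the median difference was 1.38 for those that rose and -1.40 for those that fell. A dim myelocyte mean lay behind 39 of the increases, and 177 of the genes that fell were dim in granulocytes. The median over all genes was 0.09, with 60.8% of genes above 0, and 6413 genes (32.2%) were dim in both groups. The split depended on scaling. With each array centred on its 75th percentile the counts were 635 higher and 886 lower, and all genes then had a median of 0.25, against which a list's median has to be read in that setting.

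**Figure D1:**
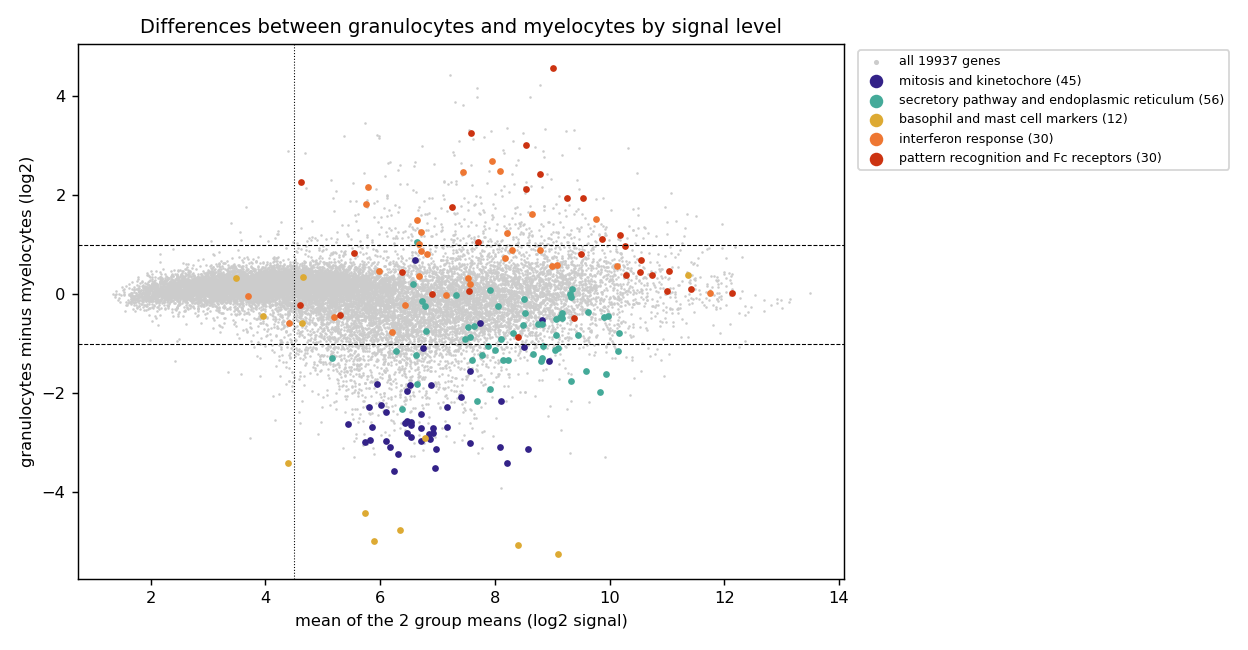
Each point is 1 of the 19937 genes, with its mean level over the myelocyte and granulocyte arrays (log2 signal) on the horizontal axis and the difference, granulocytes minus myelocytes (log2), on the vertical axis. Colours mark the members of 5 gene lists, the dashed lines mark a fold of 2 and the dotted line marks the dim level of 4.51. The 5 points below -4 are basophil and mast cell genes, the mitosis genes lie mostly below the lower dashed line, and the highest point, a pattern recognition receptor gene, is Clec4d at 4.57.

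Messages for cell division formed the list with the largest share of called genes among the 46 lists examined. Of 45 measured genes of mitosis and the kinetochore, the protein complex that ties chromosomes to the spindle, 42 fell and 0 rose, with a median of -2.64 (5.96% of all genes fell). The kinase gene Bub1, a sensor of the spindle checkpoint, was at 7.28, 8.51 and 8.30 in myelocytes and at 3.95, 5.36 and 4.06 in granulocytes, a fall of 3.57 to a dim mean (adjusted p = 4.08e-06 by limma). Kif11, a motor that pushes spindle poles apart, was at 7.88, 9.27 and 8.96 and at 4.58, 5.87 and 5.13, and it fell by 3.51 ± 0.33 (11.4-fold, adjusted p = 2.73e-06). The topoisomerase gene Top2a, which untangles sister chromatids, was at 9.16, 10.36 and 10.24 and at 5.98, 7.16 and 6.39, and fell by 3.41 ± 0.30 (10.6-fold), or by a difference of -2.15 when the mean of its rows was taken. For these 3 genes every granulocyte array lay below every myelocyte array, with myelocyte array 1 the lowest of its group and granulocyte array 2 the highest of its own. Ccnb2, a mitotic cyclin, was at 9.16, 9.92 and 9.82 in myelocytes and at 6.23, 6.97 and 6.43 in granulocytes and fell by 3.09 ± 0.22 (8.54-fold). Mki67, which codes for the proliferation antigen Ki-67, was at 9.47, 10.45 and 10.49 and at 6.47, 7.22 and 7.33 and fell by 3.13 ± 0.26 (8.75-fold), or by a difference of -3.46 without myelocyte array 1. Nuf2 of the kinetochore (8.76-fold) and the condensin gene Ncapg were among the largest decreases as well. The 3 members that did not pass were Kif23 (-0.52), Cks2 (-0.59) and the securin gene Pttg1 (0.69). Leaving out myelocyte array 1 kept the count at 42 and gave a median of -3.02.

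Promoters of 4 of these genes are shown because the mitotic genes share short sequences close to their starts. The windows are from RefSeq (GRCm38.p6), run from 250 bases before to 50 bases after the gene's start, and are written on the gene's own strand. Capitals in Ccnb2, Kif11 and Top2a mark a CCAAT box (CCAAT, or ATTGG on the other strand) or a cell cycle homology region, CHR (TTTGAA, or TTCAAA on the other strand). Capitals in Mcm6, a DNA replication gene described below, mark an E2F site (TTTCGCG, or CGCGAAA on the other strand). Matches to different motifs can share end bases. Ccnb2 lies at chr9:70421505-70421804 (minus strand), Kif11 at chr19:37376132-37376431 (plus strand), Top2a at chr11:99024140-99024439 (minus strand) and Mcm6 at chr1:128359656-128359955 (minus strand).
Ccnb2: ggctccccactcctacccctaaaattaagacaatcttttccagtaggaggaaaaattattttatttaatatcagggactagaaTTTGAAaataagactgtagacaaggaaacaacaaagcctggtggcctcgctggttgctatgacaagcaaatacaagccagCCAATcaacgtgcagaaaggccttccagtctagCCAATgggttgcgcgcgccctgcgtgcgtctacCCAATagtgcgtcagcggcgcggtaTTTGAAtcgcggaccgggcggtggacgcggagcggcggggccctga
Kif11: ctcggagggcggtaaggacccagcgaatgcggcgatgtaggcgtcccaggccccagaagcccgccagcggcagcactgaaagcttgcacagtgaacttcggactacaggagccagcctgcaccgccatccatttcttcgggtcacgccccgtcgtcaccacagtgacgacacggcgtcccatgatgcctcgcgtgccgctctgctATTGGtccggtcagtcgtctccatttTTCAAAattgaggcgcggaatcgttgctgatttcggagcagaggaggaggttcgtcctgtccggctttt
Top2a: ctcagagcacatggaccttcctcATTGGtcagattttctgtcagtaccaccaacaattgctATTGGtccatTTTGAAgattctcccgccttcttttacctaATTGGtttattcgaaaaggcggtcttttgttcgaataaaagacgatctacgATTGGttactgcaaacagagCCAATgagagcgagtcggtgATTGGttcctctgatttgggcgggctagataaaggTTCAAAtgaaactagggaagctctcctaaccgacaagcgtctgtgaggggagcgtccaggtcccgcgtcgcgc
Mcm6: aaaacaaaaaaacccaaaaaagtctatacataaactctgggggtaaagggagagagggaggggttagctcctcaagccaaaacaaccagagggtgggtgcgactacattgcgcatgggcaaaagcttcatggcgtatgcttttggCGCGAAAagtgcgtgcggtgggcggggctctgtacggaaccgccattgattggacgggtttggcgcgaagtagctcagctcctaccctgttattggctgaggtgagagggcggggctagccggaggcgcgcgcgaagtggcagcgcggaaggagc

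Windows were found for 38 mitosis genes (40 windows). Of these windows 30 held a CHR, against 14.8% of the 19176 windows of all tested genes, and 72.5% held a CCAAT box, against 37.4%. Both motifs were present in 26 of the 40 (65.0%), against 5.85% of all windows. Among mitosis genes that fell, 27 of 35 with a window held a CHR, and among those that did not pass 1 of 3 did. A match of letters is a description and not evidence that a factor binds there.

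DNA replication genes fell with those of mitosis. Of 47 measured, 34 fell, 0 rose and 13 did not pass, with a median of -1.54, and without myelocyte array 1 the count was 39 and the median -1.81. Prim1, the catalytic subunit of primase, which lays down the RNA primers of new strands, was at 6.24, 6.99 and 7.48 in myelocytes and at 3.26, 4.00 and 4.13 in granulocytes, a fall of 3.10 to a dim mean (adjusted p = 3.12e-06). Rrm2, a subunit of the ribonucleotide reductase that supplies deoxynucleotides, was at 8.16, 9.14 and 9.40 and at 5.60, 6.22 and 6.07 and fell by 2.94 ± 0.29 (7.66-fold). Mcm6 of the replicative helicase was at 7.69, 8.08 and 8.46 and at 5.83, 6.32 and 6.38 and fell by 1.90 ± 0.21 (3.73-fold, adjusted p = 8.97e-06). In each of these the groups were separate. The sliding clamp gene Pcna was at 9.13, 10.63 and 10.15 in myelocytes and at 7.75, 9.14 and 7.88 in granulocytes and fell by 1.71 ± 0.39 (adjusted p = 0.00399), although granulocyte array 2 lay just above myelocyte array 1. Cdc45 had a difference of -0.50 (adjusted p = 0.0958). Of the 46 windows of 39 replication genes, 21.7% held the E2F site printed for Mcm6, against 1.19% of all windows, and it was present in 9 of 29 genes that fell and in 1 of 10 that did not pass.

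The replication-dependent histone genes, which are read in S phase to package new DNA, had 17 of 21 measured members fall and 1 rise, with a median of -1.86. The linker histone gene H1f5 was at 11.24, 11.69 and 11.77 in myelocytes and at 8.17, 9.12 and 7.57 in granulocytes and fell by 3.28 ± 0.28 (9.74-fold, adjusted p = 1.14e-06). H2ac4 fell by 3.01 ± 0.29 (8.07-fold) and H2bc3 fell by 2.85 ± 0.46 (7.22-fold). H2bc4 went the other way, from 7.45, 6.93 and 7.04 to 9.49, 9.17 and 7.97, and rose by 1.74 ± 0.30 (3.34-fold, adjusted p = 0.000548). H1f2 (0.73) and H4c9 (0.06) did not pass, and 1 of the genes that fell, H2ac8, was dim in both groups. Members of histone clusters are close in sequence, so signal could be shared between them. Without granulocyte array 3, 2 histone genes were called higher.

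Among 31 E2F factors, cyclins and their inhibitors, 13 fell and 0 rose, with a median of -0.85, and without myelocyte array 1 the counts were 14 and 1. Cdk4, the kinase that starts the passage through G1, was at 8.41, 8.16 and 8.40 in myelocytes and at 6.04, 6.58 and 5.80 in granulocytes and fell by 2.18 ± 0.22 (4.54-fold, adjusted p = 4.86e-06). Wee1, which holds cells before mitosis, fell by 2.60 ± 0.27 (6.04-fold), and Foxm1, an activator of mitotic genes, fell by 2.26. The kinase inhibitors Cdkn1b (0.53) and Cdkn2d (0.39) and the D cyclins Ccnd2 (0.84) and Ccnd3 (-0.03) did not pass.

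**Figure D2:**
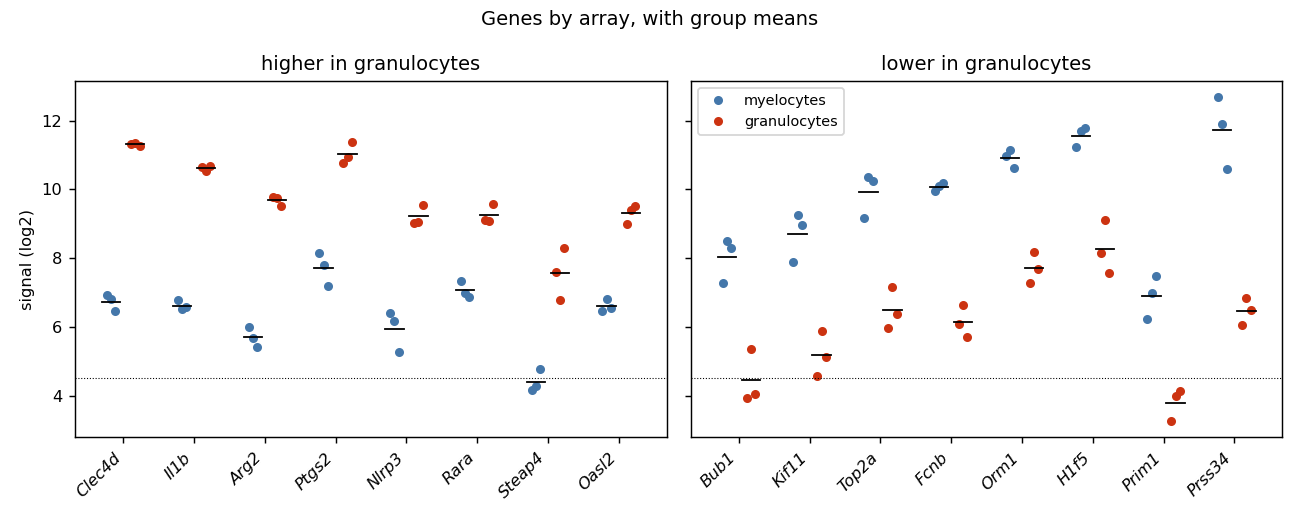
Log2 signal on each of the 3 myelocyte and 3 granulocyte arrays for 8 genes that rose in granulocytes (Clec4d, Il1b, Arg2, Ptgs2, Nlrp3, Rara, Steap4, Oasl2) and 8 that fell (Bub1, Kif11, Top2a, Fcnb, Orm1, H1f5, Prim1, Prss34). Each point is 1 array, each short line is the group mean and the dotted line is the dim level of 4.51, and for all 16 genes the arrays of the groups do not overlap.

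Genes for growth and for making protein fell less steeply than those for division. Of 38 measured ribosome biogenesis genes, 12 fell and 1 rose, with a median of -0.78. Nucleophosmin, Npm1, a chaperone of the nucleolus, was at 7.95, 7.88 and 7.83 in myelocytes and at 6.18, 6.52 and 5.49 in granulocytes and fell by 1.82 ± 0.22 (3.53-fold, adjusted p = 2.21e-05). Nop58, a core protein of small nucleolar particles, fell by 2.05 to a dim mean. Polr1a, the largest subunit of RNA polymerase I, rose from 7.92, 7.78 and 7.75 to 9.05, 9.12 and 9.08, by 1.27 ± 0.14 (2.41-fold, adjusted p = 6.93e-06). Nucleolin, Ncl (-0.53), and fibrillarin, Fbl (-0.70), did not pass. Of 27 cytosolic ribosomal protein genes 10 fell and 0 rose (median -0.86), with Rpsa at 9.98, 9.49 and 9.62 in myelocytes and at 7.97, 8.10 and 7.79 in granulocytes (a fall of 3.34-fold, or a difference of -1.11 with the mean of its rows) and Rps18 lower by 2.39-fold. The count was 6 with 75th percentile centring, 6 without granulocyte array 3 and 4 when the rows of a gene were averaged, and ribosomal protein genes have many near-identical copies in the genome. Of 23 translation factors 8 fell and 0 rose (median -0.77), among them Eif3e of the initiation complex, which fell by 1.69 ± 0.18 (3.22-fold), and the helicase gene Eif4a1, which fell by 1.29.

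The secretory route, through which granule proteins are folded and packed, had 24 of 56 measured genes fall and 1 rise (median -0.83). Lman1, a cargo receptor between the endoplasmic reticulum and the Golgi, was at 7.63, 7.47 and 7.53 in myelocytes and at 5.14, 5.16 and 5.41 in granulocytes and fell by 2.31 ± 0.21 (4.96-fold, adjusted p = 1.59e-06). Rpn2, a subunit of the enzyme that adds N-linked sugars, was at 8.83, 8.74 and 8.76 and at 6.63, 6.65 and 6.58 and fell by 2.16 ± 0.15 (4.47-fold, adjusted p = 1.38e-07). The arrays of each group lay close together for these genes and far from those of the other group. The chaperone gene Hsp90b1 fell by 1.97 (3.92-fold), Canx, which retains unfolded glycoproteins, fell by 1.55, and Ero1a, an oxidase that forms disulfide bonds, fell by 1.61 (3.06-fold). The main chaperone of the compartment, Hspa5, had a difference of -0.79 and did not reach the fold (adjusted p = 0.0033). The member that rose was the stress factor Ddit3 (1.06), which was under the fold without myelocyte array 1 (1.00 after rounding) or granulocyte array 1 (0.98).

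Mitochondrial genes fell in part. Among 47 genes of oxidative phosphorylation 10 fell and 0 rose (median -0.60), and this count was 5 with 75th percentile centring and 5 without granulocyte array 3. Ndufc2 of complex I was at 8.73, 8.59 and 8.61 in myelocytes and at 7.16, 7.31 and 6.16 in granulocytes (a fall of 3.4-fold, adjusted p = 0.00104), with granulocyte array 3 well below the other two. Cycs, cytochrome c, fell by 1.33, and Atp5b of the ATP synthase (-0.81) did not pass. Of 26 genes of the citric acid cycle and mitochondrial import 7 fell and 0 rose (median -0.78), or 11 without granulocyte array 2, including Idh3a, which fell by 2.05 ± 0.21 (4.15-fold), the fumarase gene Fh1, which fell by 2.00 ± 0.20 (4.01-fold), and the chaperonin gene Hspd1, which fell by 1.68.

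Among genes that act in the nucleus, decreases outnumbered increases, as they did over all genes (5.96% fell and 2.35% rose). The shares that fell were 28.1% for splicing and RNA processing, 38.7% for chromatin and DNA methylation and 34.8% for nuclear envelope genes. Of 32 measured splicing and RNA processing genes 9 fell and 0 rose (median -0.76), among them Snrpd1, a core protein of spliceosomal particles, which fell by 1.44, and the count was 4 with 75th percentile centring and 5 with quantile normalization. Of 31 chromatin and DNA methylation genes 12 fell and 0 rose (median -0.81), although 2 were called higher with 75th percentile centring or without granulocyte array 2, and 1 without myelocyte array 1 or 3. Ezh2, the methyltransferase of Polycomb repressive complex 2, was at 7.71, 8.64 and 8.83 in myelocytes and at 6.23, 6.69 and 6.37 in granulocytes and fell by 1.97 ± 0.24 (3.9-fold), Rbbp7, a histone-binding partner of that complex and of others, fell by 2.10 ± 0.21 (4.3-fold), and Dnmt1, which copies DNA methylation to new strands, fell by 1.62. Among 23 nuclear envelope genes 8 fell and 1 rose (median -0.67). The nuclear pore gene Nup133 fell by 1.88 ± 0.22 (3.68-fold), and the lamin B receptor, Lbr, which is needed for the lobed nucleus of neutrophils, was at a difference of 0.36 and did not pass. The lamin gene Lmnb1 rose by 1.20 and was under the fold without granulocyte array 3 (1.00 after rounding) or myelocyte array 1 (0.95).

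**Figure D3:**
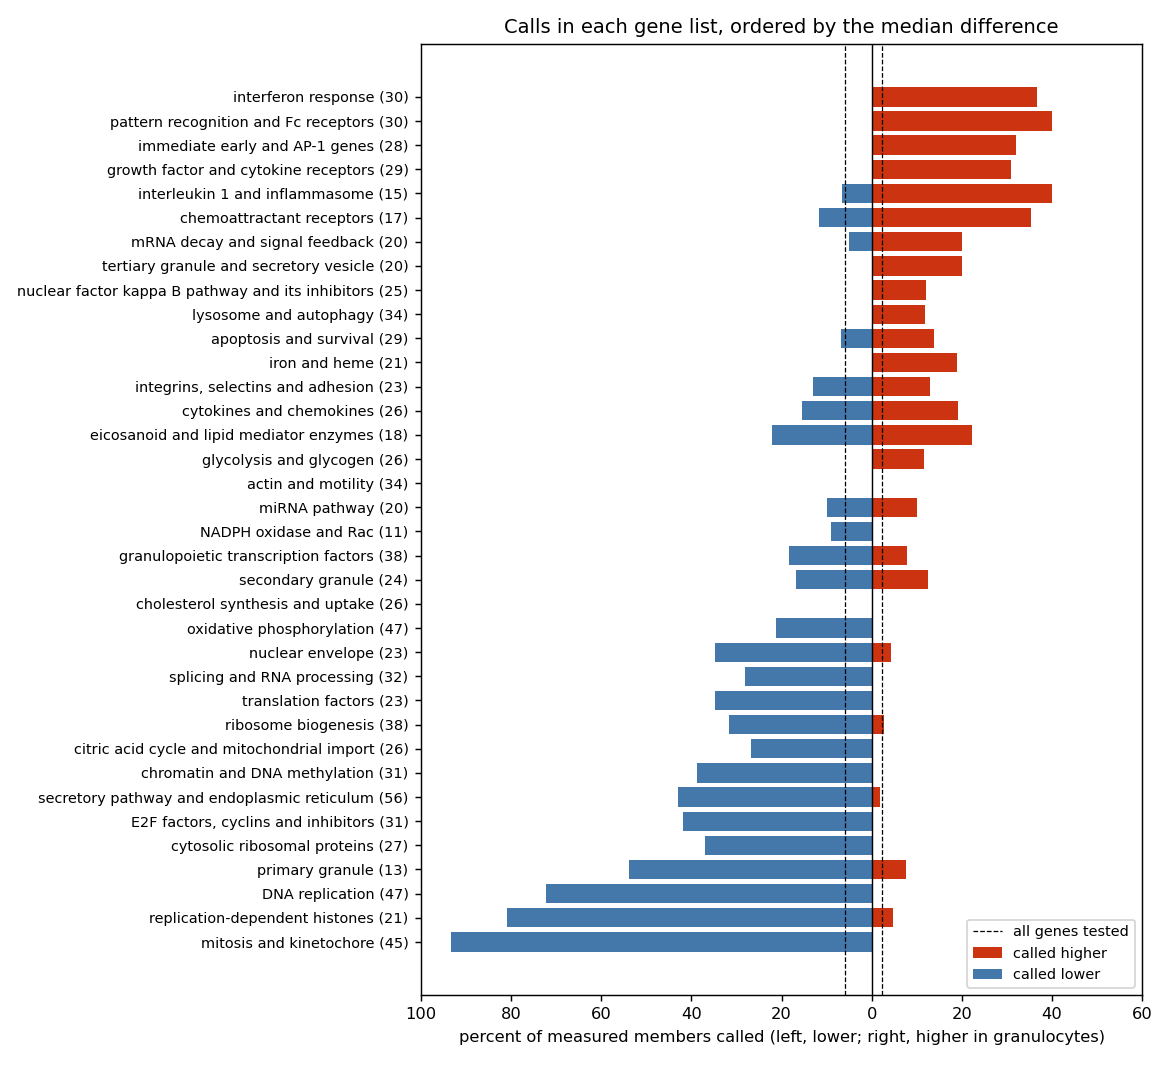
Percentage of the measured members of each gene list, the cell type markers and sort antigens left out, called higher (right) or lower (left) in granulocytes than in myelocytes, with the number measured in brackets and the lists ordered by their median difference. The dashed lines give the percentage over all genes tested, 2.35% higher and 5.96% lower. Mitosis (42 of 45 lower), histones (17 of 21 lower) and DNA replication (34 of 47 lower) lie farthest to the left, while pattern recognition and Fc receptors (12 of 30 higher) and interleukin 1 and inflammasome genes (6 of 15 higher) lie far to the right.

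Granule genes divided by granule type. Of 13 measured primary granule genes 7 fell and 1 rose, with a median of -1.21, and 4 fell without granulocyte array 3. Myeloperoxidase, Mpo, which makes hypochlorous acid, was at 8.70, 8.82 and 8.72 in myelocytes and at 7.27, 7.50 and 5.99 in granulocytes and fell by 1.82 ± 0.37 (3.54-fold, adjusted p = 0.00194), with granulocyte array 3 the lowest by more than 1 log2 unit. Ms4a3, a membrane protein of early myeloid cells, was at 7.84, 8.30 and 8.53 and at 4.99, 5.37 and 4.51 and fell by 3.26 ± 0.66 (9.6-fold). The neutrophil elastase gene Elane fell by 1.88 (adjusted p = 0.0218), a call that was lost without myelocyte array 2 (adjusted p = 0.0611), myelocyte array 3 (0.0797) or granulocyte array 3 (0.121). Serglycin, Srgn, the proteoglycan core that holds proteases in granules, was the member that rose, from 11.13, 10.44 and 10.08 to 12.14, 12.15 and 12.22 (3.07-fold, adjusted p = 5.25e-05). Lysozyme, Lyz2, had a difference of -0.15.

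Most secondary granule genes did not pass in either direction. Of 24 measured, 3 rose, 4 fell and 17 did not pass, with a median of -0.16 (0.00 with 75th percentile centring). Ltf (-0.28, adjusted p = 0.444), the siderophore carrier Lcn2 (-0.09) and the neutrophilic granule gene Ngp (-0.17) did not pass. The cathelicidin gene Camp was at 12.98, 12.76 and 12.76 in myelocytes and at 12.32, 12.17 and 11.17 in granulocytes (-0.94, adjusted p = 0.133), so its groups did not overlap but the difference did not pass. Ficolin B, Fcnb, a lectin that starts complement, was at 9.94, 10.10 and 10.18 and at 6.10, 6.64 and 5.72 and fell by 3.92 ± 0.38 (15.1-fold, adjusted p = 3.29e-06). Orosomucoid, Orm1, an acute phase protein, was at 10.98, 11.14 and 10.62 and at 7.29, 8.17 and 7.68 and fell by 3.20 ± 0.20 (9.21-fold, adjusted p = 8.24e-08). Members of the stefin A family of protease inhibitors rose, with Stfa3 going from 5.39, 5.37 and 5.32 to 7.77, 8.21 and 6.78 (4.68-fold, adjusted p = 5.07e-05) and Stfa2 going from a dim 2.96, 3.34 and 3.48 to 6.03, 6.52 and 5.80. The stefin A genes are near-identical copies of each other, so their signals may be shared. They were counted in this list, but a place in it does not show where a gene's product is stored. The collagenase gene Mmp8 (0.95, 1.93-fold, adjusted p = 0.00941) lay just under the fold.

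The list drawn up for tertiary granules and secretory vesicles had 4 of its 20 measured members rise and 0 fall, with a median of 0.42. A place in the list does not show where a gene's product is stored, Arg2 included. The vanin gene Vnn3, whose family hydrolyses pantetheine, was at 5.09, 5.39 and 4.53 in myelocytes and at 9.38, 9.38 and 9.54 in granulocytes (4.43 ± 0.21, 21.6-fold, adjusted p = 4.22e-09), and the arginase gene Arg2 went from 6.01, 5.68 and 5.43 to 9.79, 9.76 and 9.51 (3.98 ± 0.21, 15.8-fold). Both had their groups apart by more than 3 log2 units. Adam8, a membrane protease that sheds adhesion molecules, rose by 1.35 (2.55-fold), and Fcgr4 rose by 1.12 but was under the fold without myelocyte array 3 (0.97). The gelatinase gene Mmp9 was at 12.11, 11.88 and 11.79 in myelocytes and at 12.74, 12.57 and 12.73 in granulocytes, separate groups whose difference of 0.75 was under the fold.

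Many receptor genes rose. The largest increase in the comparison was Clec4d, a C-type lectin that binds fungal and mycobacterial glycolipids, which was at 6.92, 6.83 and 6.47 in myelocytes and at 11.32, 11.34 and 11.26 in granulocytes, a rise of 4.57 ± 0.20 (23.8-fold, adjusted p = 2.11e-09). Of 30 measured pattern recognition and Fc receptor genes 12 rose and 0 fell, with a median of 0.75. Clec7a, the beta-glucan receptor dectin 1, went from 7.74, 7.75 and 7.23 to 10.11, 10.05 and 9.83 (5.37-fold), and the bacterial lipoprotein receptor Tlr2 went from 7.60, 7.48 and 7.35 to 9.45, 9.49 and 9.91 (2.14 ± 0.22, 4.39-fold, adjusted p = 4.5e-06). Cd300ld, a myeloid immunoglobulin-like receptor, went from 7.39, 7.12 and 6.62 to 9.82, 10.14 and 10.21 (8.08-fold). All granulocyte arrays were above all myelocyte arrays for these 4 receptors. Clec4e, the partner lectin of Clec4d, and Tlr13, a sensor of bacterial ribosomal RNA, each rose by 3.86-fold. Clec4n, dectin 2, rose by 2.27 from a dim mean. The common chain Fcer1g (0.02), the lipopolysaccharide co-receptor Cd14 (0.46) and Fcgr3, which the anti-CD16/32 antibody of the sort binds (0.82, adjusted p = 0.176), did not pass.

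Of 17 chemoattractant receptor genes 6 rose and 2 fell, with a median of 0.52. Cxcr2, given above, rose by 1.59 ± 0.29 (3.01-fold, adjusted p = 0.00069), and the related Cxcr1 went from 4.95, 5.20 and 4.94 to 7.81, 7.43 and 7.73 (2.62 ± 0.22, 6.16-fold, adjusted p = 1.09e-06). The chemokine receptor Ccr1 went from 8.91, 8.66 and 8.81 to 10.73, 10.87 and 10.57 (3.82-fold). Hcar2, the receptor for niacin and beta-hydroxybutyrate, stood at 6.20, 6.18 and 6.29 and at 9.42, 9.34 and 9.46 and rose by 3.18 ± 0.32 (9.07-fold, adjusted p = 4.5e-06). For all 4 the arrays of a group lay close together and far from those of the other group. Cxcr4, which holds neutrophils in the marrow (0.30), the C5a receptor C5ar1 (0.59) and the platelet-activating factor receptor Ptafr (0.97) did not pass. The C3a receptor C3ar1 fell, from 8.58, 7.08 and 5.46 to 3.76, 4.37 and 4.07, by 2.97 to a dim mean (-2.20 without myelocyte array 1, -3.76 without array 3). Without granulocyte array 1 the other gene that fell, Gpr84, was at -0.99 and under the fold.

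Growth factor and cytokine receptors had 9 of 29 measured members rise and 0 fall (median 0.57). The granulocyte colony-stimulating factor receptor, Csf3r, went from 10.08, 10.15 and 10.01 to 11.95, 11.65 and 11.93 and rose by 1.76 ± 0.14 (3.39-fold, adjusted p = 4.72e-07). Il13ra1, which binds interleukin 13 and pairs with the interleukin 4 receptor, went from 6.58, 6.18 and 4.71 to 9.04, 8.67 and 9.04 (8.53-fold), and Il4ra rose by 1.30. Myelocyte array 3 was the lowest for Il13ra1 by more than 1 log2 unit. Tgfbr2 rose by 1.28, and the shared beta chain Csf2rb was at a difference of 0.27. Of 23 genes of integrins, selectins and adhesion, 3 rose and 3 fell (median 0.12), or 2 fell without myelocyte array 1 or granulocyte array 2. Jaml, a junctional adhesion molecule of migrating leukocytes, went from 5.77, 5.70 and 5.36 to 10.02, 9.92 and 9.37 (4.16 ± 0.18, 17.9-fold), the selectin ligand Selplg rose by 1.61 (3.06-fold) and Itgax rose by 1.36, whereas Itga6, which fell by 1.41, and Itgb1, which fell by 1.36, code for chains of a laminin receptor. The chains of the Mac-1 integrin, Itgam (0.03, adjusted p = 0.904) and Itgb2 (0.24), did not pass.

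Some messages for inflammatory proteins were among the larger increases. Among 15 genes of interleukin 1 and the inflammasome 6 rose and 1 fell, with a median of 0.52. Interleukin 1 beta, Il1b, was at 6.77, 6.52 and 6.57 in myelocytes and at 10.65, 10.53 and 10.67 in granulocytes and rose by 3.99 ± 0.17 (15.9-fold, adjusted p = 2.11e-09). Nlrp3, the sensor of the inflammasome that matures interleukin 1 beta, was at 6.42, 6.17 and 5.28 and at 9.04, 9.05 and 9.56 and rose by 3.26 ± 0.40 (9.58-fold, adjusted p = 2.44e-05). Both genes had wholly separate groups, with the myelocyte arrays more spread for Nlrp3. The antagonists rose too. Il1rn, the secreted receptor antagonist, went from 7.44, 7.29 and 6.90 to 9.19, 9.35 and 9.28 (4.18-fold), and Il1r2, the decoy receptor, went from 8.97, 9.01 and 9.16 to 10.36, 10.42 and 10.50 (2.6-fold). The DNA sensor Aim2 rose by 1.29, Nlrc4, a sensor of flagellin, fell by 1.30 to a dim mean, and Casp1, the protease that cuts interleukin 1 beta, did not pass (0.52, adjusted p = 0.0646).

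Of 26 cytokines and chemokines 5 rose and 4 fell (median 0.12). Cxcl2, a ligand of Cxcr2, went from 5.35, 6.31 and 6.03 to 8.42, 9.33 and 9.90 (3.32 ± 0.51, 9.98-fold, adjusted p = 0.000198), and Ccl6 went from 10.37, 9.14 and 8.26 to 12.01, 11.77 and 11.37 (5.5-fold, adjusted p = 0.000146). Tnfsf14 rose by 1.31 and Il15 by 1.12, and Tnf was at 0.24. Those that fell were Il6, Ccl9 and Ccl4, beside Tnfsf13b, which lost its call without myelocyte array 3. In all of Il6 (6.67, 5.30 and 3.57 in myelocytes, a dim 2.26, 2.16 and 2.41 in granulocytes), Ccl9 (9.61, 8.02 and 7.04 against 5.84, 6.15 and 6.38) and Ccl4 (9.62, 7.88 and 7.36 against 6.74, 6.36 and 6.63), myelocyte array 1 was the highest and array 3 the lowest of the group, the order seen for the basophil genes below. Without myelocyte array 1 the differences went from -2.90 to -2.16 for Il6, from -2.10 to -1.41 for Ccl9 and from -1.71 to -1.05 for Ccl4, and without array 3 Il6 was at -3.71 and Ccl9 at -2.69. Such an order of the myelocyte arrays was not particular to basophil genes. Of 29 growth factor and cytokine receptors, array 1 was the highest for 20 and the lowest for 3, and array 3 was the lowest for 23. The part of basophil RNA in Il6, Ccl9 and Ccl4 was not tested.

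Enzymes of lipid mediators moved both ways, 4 of 18 rising and 4 falling (median 0.09), with 2 falling under 75th percentile centring or quantile normalization. Ptgs2, the inducible cyclooxygenase, went from 8.14, 7.82 and 7.19 to 10.78, 10.93 and 11.38 (3.31 ± 0.50, 9.95-fold, adjusted p = 0.00015). Cyp4f18, which inactivates leukotriene B4, went from 9.14, 8.07 and 7.64 to 10.78, 10.56 and 10.47 (4.99-fold). Lta4h, which makes leukotriene B4, went down from 11.29, 11.20 and 11.32 to 9.59, 9.74 and 9.43 (3.22-fold, adjusted p = 1.5e-05). The lipoxygenase Alox15, an enzyme of eosinophils and macrophages, was at 10.18, 8.52 and 7.05 and at 5.78, 5.95 and 5.44, and its difference of -2.86 (7.26-fold) was -2.06 without myelocyte array 1 and -3.63 without array 3. Alox5 of the leukotriene route did not pass (0.26). Pla2g7, the plasma hydrolase of platelet-activating factor, was among the largest increases, going from 7.44, 6.90 and 5.66 to 11.18, 10.80 and 10.73 (4.24 ± 0.32, 18.9-fold).

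Interferon response genes, which are switched on by type I interferon through a shared promoter element, had 11 of 30 measured members rise and 0 fall, with a median of 0.77, and 14 rose with 75th percentile centring. Oasl2, of the oligoadenylate synthetase-like family, was at 6.45, 6.81 and 6.55 in myelocytes and at 9.00, 9.39 and 9.53 in granulocytes and rose by 2.70 ± 0.23 (6.51-fold, adjusted p = 1.26e-06). Rsad2, the antiviral protein viperin, went from 6.23, 6.36 and 6.05 to 8.48, 8.85 and 8.73 (2.47 ± 0.15, 5.56-fold, adjusted p = 6.27e-08), and Rtp4 went from 6.62, 7.26 and 6.64 to 8.89, 9.72 and 9.38 (5.62-fold). The groups of each were apart by more than their own ranges. Ifit3 rose by 2.17 (4.5-fold), Oas3 by 1.62, Ifitm1 by 1.52, Oasl1 by 1.50, the transcription factor gene Irf7 by 1.25 and the deconjugase gene Usp18 by 1.25. Not every member took part, as Ifit2 (-0.75), Mx1 (-0.57) and Stat2 (0.20) did not pass. When no fold was required, 19 members were called higher and 2 lower.

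Ifit1, which binds viral RNA without a host cap, went from 4.51, 5.24 and 4.76 to 6.57, 7.31 and 6.13 (1.83 ± 0.29, 3.56-fold, adjusted p = 0.000217). Its promoter is shown as an example of the shared element, with the matches to GAAANNGAA (TTCNNTTTC on the other strand) in capitals. The search for it was added after values were seen, and its matches can overlap each other or a CHR. It is a RefSeq window of GRCm38.p6 at chr19:34640639-34640938, plus strand.
Ifit1: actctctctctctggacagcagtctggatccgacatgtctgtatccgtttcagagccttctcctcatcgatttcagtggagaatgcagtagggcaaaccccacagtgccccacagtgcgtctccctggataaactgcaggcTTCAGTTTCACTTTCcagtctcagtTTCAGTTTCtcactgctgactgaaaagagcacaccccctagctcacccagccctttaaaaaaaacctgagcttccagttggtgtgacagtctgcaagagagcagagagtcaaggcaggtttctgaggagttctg
The element was in 14 of 29 windows of the interferon genes (48.3%) and in 7.84% of all windows. It was present in 4 of the 9 genes with a window that rose and in 10 of the 16 that did not pass, so within the list it did not mark the genes that rose. It was in 11.1% of the windows of all genes called higher and 7.91% of those called lower.

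Immediate early genes, which code for short-lived transcription factors of the AP-1 type and their brakes, had 9 of 28 members rise and 0 fall (median 0.60). Fos went from 9.31, 9.55 and 9.80 to 11.09, 11.42 and 11.31 (3.29-fold, adjusted p = 0.00234), Junb went from 7.28, 6.92 and 6.77 to 8.95, 9.29 and 8.84 (4.11-fold, adjusted p = 9.58e-06), and the phosphatase gene Dusp1, which switches off MAP kinases, went from 10.04, 10.17 and 9.94 to 11.99, 12.22 and 12.12 (4.17-fold, adjusted p = 0.00042). All 3 had separate groups. Ier5 rose by 1.78 and Btg2 by 1.17, while Jun (-0.61) and Atf3 (1.14) did not pass. Among 20 genes of mRNA decay and signal feedback 4 rose and 1 fell (median 0.43). The cytokine signal inhibitor Socs3 rose by 1.96 (3.88-fold) and Zfp36l1, which binds AU-rich messages for decay, by 1.71 (3.27-fold), and Rgs1 went from 8.41, 7.24 and 6.63 to 3.93, 4.36 and 4.64, with myelocyte array 1 again the highest (-3.12, or -2.62 without it). Of 25 genes of the nuclear factor kappa B pathway 3 rose and 0 fell (median 0.31), including the nuclear inhibitor-like factor Bcl3 (1.70, 3.26-fold) and Tnfaip2 (1.19), and the inhibitor Nfkbia was at -0.09. The third, Nfkbid (1.21), lost its call whichever of the 6 arrays was left out.

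Of 38 transcription factors of granulopoiesis 3 rose and 7 fell, with a median of -0.04 (5 rose and 4 fell with 75th percentile centring, median 0.13). The largest fall in the list, -2.91, was that of Gata2. This gene is counted again among the basophil and mast cell markers below, where its arrays are given. The retinoic acid receptor gene Rara, whose product drives late granulocytic differentiation, was at 7.33, 6.98 and 6.88 in myelocytes and at 9.11, 9.08 and 9.58 in granulocytes and rose by 2.19 ± 0.20 (4.57-fold, adjusted p = 2.22e-06). Cebpe, which is needed for secondary granule genes, was at 9.70, 9.80 and 10.03 and at 8.56, 8.77 and 8.22 and fell by 1.33 ± 0.20 (2.51-fold, adjusted p = 0.000152). The repressor gene Gfi1 was at 7.24, 7.04 and 7.29 and at 5.93, 5.83 and 5.77 and fell by 1.35 ± 0.14 (2.54-fold, adjusted p = 6.28e-06). For each of the 3 genes the groups were separate. Spi1, the gene of PU.1 (0.42), Stat3 (0.35) and the Myc antagonist Mxd1 (0.90) did not pass.

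Among 29 genes of apoptosis and survival 4 rose and 2 fell (median 0.19), and the share that fell (6.9%) was near the 5.96% of all genes. The death receptor gene Fas went from 6.24, 6.16 and 6.23 to 8.70, 8.98 and 8.21 (5.35-fold), and Pmaip1, a death-promoting Bcl2 relative, rose by 1.19. Pim1, a kinase that favours survival, went from 8.90, 8.42 and 8.38 to 10.08, 10.12 and 10.36 (1.62 ± 0.20, 3.08-fold). The groups of Fas and of Pim1 were separate. Birc5, survivin, which also serves in mitosis, fell by 2.27, and Ripk3, a kinase of necroptosis, fell by 1.60. The survival gene Mcl1 (0.91) and Bcl2 (-0.75) did not pass.

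Few members of the metabolic lists were called, but the shares that rose were above the 2.35% of all genes. They were 11.5% for glycolysis and glycogen, 19.0% for iron and heme and 11.8% for lysosome and autophagy. Of 26 genes of glycolysis and glycogen 3 rose and 0 fell (median 0.08), and all 3 code for transporters. The hexose transporter Slc2a6 went from 7.60, 6.47 and 6.15 to 9.84, 9.45 and 9.47 (7.21-fold), the glucose transporter Slc2a1 from 7.55, 7.09 and 6.95 to 8.66, 8.61 and 8.86 (2.86-fold) and the lactate exporter Slc16a3 rose by 1.39 (2.62-fold). The enzymes did not pass, for example hexokinase Hk3 (0.18) and glycogen phosphorylase Pygl (0.38). Of 21 iron and heme genes 4 rose and 0 fell (median 0.17). The metalloreductase Steap4 went from a dim mean (4.18, 4.28 and 4.77) to 7.60, 6.79 and 8.29 (adjusted p = 1.79e-06), the heme oxygenase gene Hmox1 went from 7.57, 7.71 and 7.28 to 8.70, 9.20 and 8.68 (2.53-fold), and the mitochondrial iron importer Slc25a37 rose by 1.30. Of 34 lysosome and autophagy genes 4 rose and 0 fell (median 0.23), among them cathepsin D, Ctsd (1.18), the autophagy kinase Ulk1 (1.16) and Trp53inp1 (1.30).

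Some lists had few or 0 calls by limma. Of 34 actin and motility genes 0 were called (median 0.04), with 4 higher and 3 lower at an unadjusted p under 0.05. Of 26 cholesterol genes 0 were called (median -0.16), with 4 higher and 8 lower at that p, and 8 of these had an adjusted p under 0.05 but a fold under 2. Of 11 genes of the NADPH oxidase, which makes superoxide, and its Rac partners, 1 fell and 0 rose (median -0.02, or 0.15 with 75th percentile centring). That gene was the proton channel Hvcn1, at 10.02, 9.84 and 9.61 in myelocytes and at 8.21, 8.48 and 8.56 in granulocytes (2.65-fold, adjusted p = 0.000933), and the oxidase subunits Cybb (-0.33) and Ncf1 (-0.02) did not pass.

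**Figure D4:**
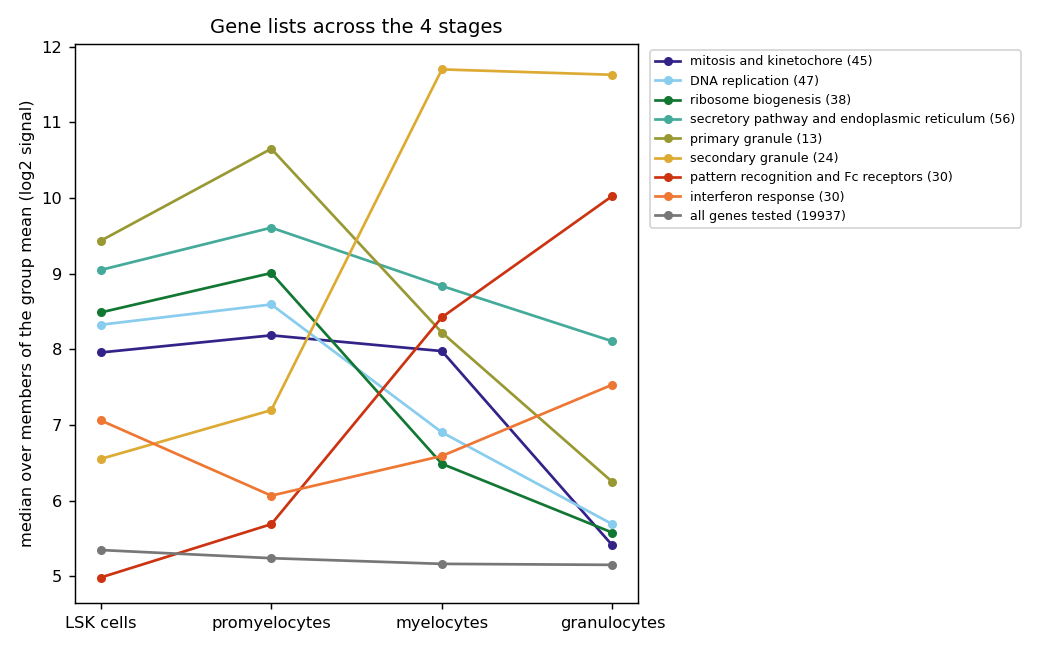
Median over the members of 8 gene lists, and over all genes, of the group means (log2 signal) in LSK cells, promyelocytes, myelocytes and granulocytes. The course of each line can be read but not the height of 1 line against another, and the mitosis line goes from 7.98 in myelocytes to 5.41 in granulocytes while that of secondary granule genes goes from 11.70 to 11.63.

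The lists took different courses over the 4 stages, given here as values without a test because the comparisons at the myelocyte stage share its arrays. For mitosis genes the median of the group means was 7.96 in LSK cells, 8.18 in promyelocytes, 7.98 in myelocytes and 5.41 in granulocytes. DNA replication genes were at 8.33, 8.59, 6.90 and 5.69 in the same order, and ribosome biogenesis genes at 8.49, 9.01, 6.49 and 5.58. The median of the mitosis genes thus stayed near its level up to the myelocyte, whereas those of replication and ribosome biogenesis genes were already lower there. Primary granule genes went from 9.43 and 10.65 to 8.22 and 6.25. Secondary granule genes stood at 6.55 and 7.20 before the myelocyte and at 11.70 and 11.63 from it on. The pattern recognition receptors went from 4.98 and 5.69 to 8.42 and 10.03, higher at each stage than at the one before. Interferon genes were at 7.06, 6.07, 6.59 and 7.53. The median over all genes stayed between 5.15 and 5.35.

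Several of the 20 largest increases lay outside the gene lists. The sialyltransferase gene St3gal6, which helps build selectin ligands, went from 5.63, 5.40 and 5.55 to 9.51, 9.07 and 9.50 (14.3-fold, adjusted p = 1.2e-09). The inhibitory receptor Klra2 rose by 10.3-fold, the endolysosomal peptide transporter Slc15a3 by 10.2-fold, the secreted Fgl2 by 9.93-fold, the long noncoding RNA Mirt2 by 9.87-fold, the phosphatase Phospho1 by 9.68-fold and the surface protein Cd101 by 9.65-fold. Sycp2 (3.46), Prr5l (3.22), Mpzl3 (3.20) and Sfmbt2 (3.19) rose from dim means. Among the 20 largest decreases, Fbxo5, an inhibitor of the anaphase-promoting complex, fell 9.7-fold, Pclaf, a partner of Pcna, fell 9.29-fold and Gatm, which makes the precursor of creatine, fell 8.85-fold, from 7.75, 8.54 and 8.70 to 5.02, 5.36 and 5.17. Shcbp1 fell by 3.24 to a dim mean.

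The study paired these messages with miRNA measurements, which were not used here. Among 20 measured genes of the miRNA pathway 2 rose and 2 fell (median 0.01), and 1 fell with 75th percentile centring or quantile normalization. The helicase gene Mov10, a partner of Argonaute proteins that is also raised by interferon, was at 7.20, 7.04 and 6.88 in myelocytes and at 9.71, 9.52 and 10.04 in granulocytes and rose by 2.72 ± 0.18 (6.57-fold, adjusted p = 1.38e-07). Ago4 rose by 1.33 (2.51-fold), and Ago2 was at 0.01. Dgcr8, which binds primary miRNA transcripts for cutting, was at 6.71, 7.31 and 7.40 and at 5.47, 5.79 and 5.64 and fell by 1.50 ± 0.20 (2.83-fold, adjusted p = 4.35e-05). Dicer1, which cuts precursors to mature miRNAs, fell by 1.12 and was under the fold with 75th percentile centring (-0.95) or quantile normalization (-0.93).

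The array also carried 300 genes named for miRNAs, whose signal comes from precursor or host transcripts and is not an assay of the mature form. Of these, 185 were dim in both groups and 1 rose and 1 fell, with a median of 0.14. Over all genes tested 2.35% rose, 5.96% fell and 32.2% were dim in both groups. Calls were thus rarer among the miRNA-named genes, but a larger share of these was dim. The shares called among genes above the dim level were not compared. The gene that rose, Mir15a, and the gene that fell, Mir15b, belong to the same seed family. The mature sequences of this family are printed from RefSeq (GRCm38.p6) to show what they share. Capitals mark the seed, bases 2 to 8. miR-15a lies at chr14:61632075-61632096 (minus strand), miR-15b at chr3:69009775-69009796 (plus strand), and miR-16 at chr14:61631936-61631957 (minus strand) and again at chr3:69009918-69009939 (plus strand).
mmu-miR-15a-5p: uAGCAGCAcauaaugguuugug
mmu-miR-15b-5p: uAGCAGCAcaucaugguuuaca
mmu-miR-16-5p: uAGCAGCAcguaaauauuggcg
All 3 have the seed AGCAGCA, and each chromosome holds a miR-15 gene beside a copy of miR-16. On chromosome 14 Mir15a went from 6.49, 6.35 and 6.24 to 8.32, 7.41 and 7.61 (1.42 ± 0.21, 2.67-fold, adjusted p = 0.000164), and Mir16-1 from 5.32, 5.54 and 5.42 to 6.59, 5.79 and 6.15 (0.75, adjusted p = 0.00495, under the fold). On chromosome 3 Mir15b fell by 1.21 to a dim mean, but its groups overlapped and the call (adjusted p = 0.0281) was lost without myelocyte array 2 or 3 or granulocyte array 1 or 3, and Mir16-2 was at -0.56 (adjusted p = 0.128). Smc4, the condensin gene whose intron holds the chromosome 3 pair, fell by 1.35 (adjusted p = 0.000277).

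Markers of other cells were checked in both populations, since the lineage antibodies did not cover all of them. The largest decreases of the whole comparison were basophil and mast cell genes, of which 7 of 12 measured fell and 0 rose (median -3.16). The protease gene Prss34 was at 12.68, 11.91 and 10.59 in myelocytes and at 6.06, 6.84 and 6.51 in granulocytes and fell by 5.26 ± 0.78 (38.3-fold, adjusted p = 0.000128), or by a difference of -4.78 without myelocyte array 1. Mcpt8, a basophil protease, was at 12.15, 10.98 and 9.70 and at 5.55, 6.06 and 6.01 and fell by 5.07 ± 0.53 (33.6-fold), and was at -4.46 without that array. The high-affinity IgE receptor chain Fcer1a was at 10.12, 8.07 and 6.95 in myelocytes and dim at 3.21, 3.73 and 3.23 in granulocytes, and the carboxypeptidase Cpa3 was at 10.10, 8.96 and 7.17 and dim at 3.80, 4.09 and 4.02. In all 4 genes myelocyte array 1 was the highest and array 3 the lowest, and every myelocyte array was above every granulocyte array. Ms4a2 (9.56, 8.09 and 6.17 to a dim 3.77, 3.42 and 3.39), Cd200r3 (7.68, 6.05 and 4.56 to a dim 2.70, 2.90 and 2.43) and the transcription factor Gata2 (9.73, 7.96 and 7.00 to 5.08, 5.51 and 5.38, 7.49-fold) followed the same order. The steroid enzyme gene Cyp11a1, which is in none of the lists, did so as well (8.77, 7.09 and 5.73 to a dim 3.85, 3.91 and 3.95). Without myelocyte array 1 the difference went from -4.99 to -4.12 for Fcer1a, from -4.77 to -4.10 for Cpa3, from -4.41 to -3.60 for Ms4a2, from -3.42 to -2.63 for Cd200r3, from -2.91 to -2.16 for Gata2 and from -3.29 to -2.50 for Cyp11a1. Without array 3 the same genes were at -5.70, -5.56, -5.30, -4.19, -3.52 and -4.02, and Mcpt8 was at -5.69. The count of 7 held in each of the 6 fits that left out 1 array, and the median ran from -2.39 without myelocyte array 1 to -3.85 without array 3. Summed on the linear scale, the signal of the 12 markers was 5150 to 17830 in myelocytes (median 9429) and 3132 to 3669 in granulocytes (median 3204), and 9 of the 12 were above the dim level in myelocytes and 5 in granulocytes. Most of the granulocyte sum came from Hdc, which neutrophils also express and which did not pass (0.39, adjusted p = 0.547), at 2779 to 3359. The 7 genes that fell summed to 1493 to 5418 in promyelocytes, 2864 to 15120 in myelocytes and 190.6 to 275.3 in granulocytes. The part of basophil RNA in other differences was not tested.

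**Figure D5:**
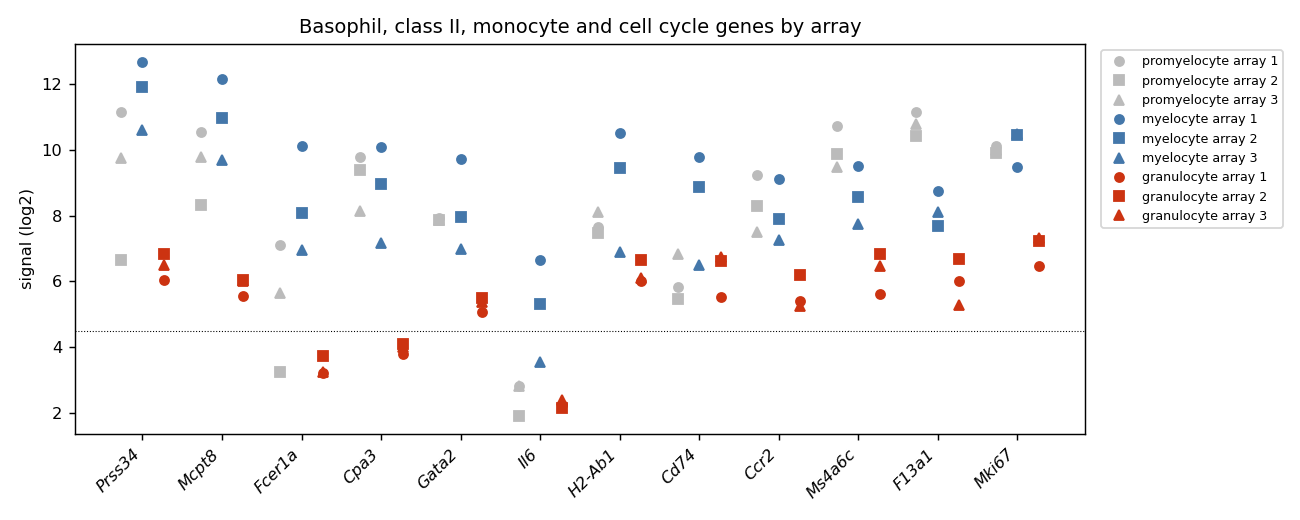
Log2 signal on each promyelocyte, myelocyte and granulocyte array for basophil genes (Prss34, Mcpt8, Fcer1a, Cpa3, Gata2), for Il6, for class II genes (H2-Ab1, Cd74), for monocyte genes (Ccr2, Ms4a6c, F13a1) and for Mki67 as a division gene. Each point is 1 array and the dotted line is the dim level of 4.51, and myelocyte array 1 is the highest myelocyte array for each gene except Mki67, for which it is the lowest.

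Markers of antigen presenting cells and of monocytes also differed between the myelocyte arrays. Of 13 dendritic cell markers 5 fell and 1 rose (median -0.19), and the count that fell was 1 with a trended and robust spread, 2 without myelocyte array 1, myelocyte array 2 or granulocyte array 1 and 3 without granulocyte array 3. The class II gene H2-Ab1 was at 10.52, 9.45 and 6.89 in myelocytes and at 6.00, 6.66 and 6.10 in granulocytes (-2.70, adjusted p = 0.00369, or -1.92 without myelocyte array 1 and -3.73 without array 3). The invariant chain gene Cd74 was at 9.78, 8.86 and 6.51 and at 5.51, 6.63 and 6.73, so that myelocyte array 3 lay among the granulocytes, and its difference of -2.09 was -1.39 without myelocyte array 1 and -3.03 without array 3. Its call was lost without myelocyte array 1 (adjusted p = 0.0935), myelocyte array 2 or granulocyte array 1. The summed signal of these markers was 721.8 to 4606 in myelocytes and 681.1 to 791.5 in granulocytes, so the lowest myelocyte array was within the granulocyte range. Of 18 monocyte and macrophage markers 5 fell and 4 rose (median -0.27), with 1 rising without myelocyte array 3. Ccr2, the receptor by which monocytes leave the marrow, went from 9.13, 7.90 and 7.27 to 5.40, 6.19 and 5.26 (-2.48, or -1.97 without myelocyte array 1) and the factor XIII gene F13a1 from 8.75, 7.69 and 8.11 to 6.03, 6.68 and 5.28 (-2.19, or -1.90). Mpeg1, a pore-forming protein of phagocytes, rose by 1.31. Summed monocyte signal was 2086 to 4625 in myelocytes and 3401 to 4067 in granulocytes, which overlapped.

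Other cell types gave few calls on short lists, and most of these calls rested on single arrays. Where a list had calls in a direction, its share was above that of all genes (2.35% higher, 5.96% lower). Eosinophil markers had 12.5% lower and megakaryocyte markers 14.3% lower. Erythroid markers had 11.1% higher, and T and NK cell markers had 15.4% higher and 7.69% lower. Of 8 eosinophil markers 1 fell, also in each fit that left out 1 array. The gene was Alox15, counted above among the enzymes of lipid mediators. Its difference ran from -3.63 to -2.06 in those fits. Of 7 megakaryocyte markers 1 fell, or 0 without myelocyte array 1 or granulocyte array 2. Of 9 erythroid markers 1 rose, or 0 without any single myelocyte array or granulocyte array 3 and 2 without granulocyte array 1. Of 13 T and NK cell markers 2 rose and 1 fell, with 1 rising without myelocyte array 2 or any single granulocyte array and 0 falling without myelocyte array 1 or granulocyte array 3. The summed erythroid signal was 322 to 409.4 in myelocytes and 440 to 915.3 in granulocytes, and that of eosinophil markers 489.7 to 1570 and 371.3 to 603.1. By limma 0 of 13 B cell markers were called, 1 being higher at an unadjusted p under 0.05, and 0 of 12 stromal and endothelial markers, 2 being higher at that p. The summed B cell signal was 260.4 to 307.9 in myelocytes and 308.1 to 327.5 in granulocytes. The part of these cells in the results above was not tested.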

How the data were processed

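Trizol total RNA from sorted cells (300 ng per array) was amplified and labelled for 1-colour Affymetrix Mouse Gene 1.0 ST arrays. The labels name biotinylated cRNA as the target, whereas the study's methods describe cRNA copied into fragmented, labelled DNA. The values are the log2 signals deposited by the authors, made with justRMA from Bioconductor, whose version is not given in the sources used here. It corrects background, brings all arrays to a common probe distribution and summarises probe sets, and can so hide a change shared by most genes. Nothing further was normalized. Array medians were 4.96 to 5.12.

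Of 34760 array rows, 21640 had 1 gene symbol in the platform's table, 1321 had several and 11799 had none. Rows with 1 symbol were used. For 954 genes with more than 1 such row, that with the highest mean across all 12 arrays was kept, leaving 19937 genes. The test was limma 3.58.1 (lmFit and eBayes, R 4.3.3), fitted once to the 4 populations. A call required a fold of 2 or more and a Benjamini-Hochberg adjusted p below 0.05. Precision is limited by the number of arrays, and the median SD within a group was 0.21, with 8 residual and 7.02 prior degrees of freedom. The fit was tested on simulated data.

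Named genes came from the 20 largest increases and 20 largest decreases among called genes with separate groups, without predicted models and sort antigens, and from 46 lists of 1080 distinct genes. Members and lists were chosen with earlier results of these data known. List members that lack a tested row of their own were not analysed here. Promoters (RefSeq, GRCm38.p6) were found for 15613 genes (78.3%). Other scalings, filters, rows, thresholds and spreads, the replicate number and leaving out each array were tried as alternatives.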

Additional observations from a re-analysis of the deposited data

How the results depend on the processing

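The 469 genes higher and 1188 lower became 1609 and 2764 when no fold was required. All other settings gave counts within 1.5 times: 456 and 1218 with median centring, 635 and 886 with 75th percentile centring, 498 and 1062 with quantile normalization, 465 and 1188 without genes dim in both groups (13524 tested), 469 and 1149 with the mean of a gene's rows, 469 and 1182 in a fit of the 6 arrays alone, 466 and 1171 with a trended and robust spread, and 471 and 1195 with the unadjusted p. Leaving out each array in turn gave 431 to 517 higher and 1095 to 1248 lower. With the replicate block 469 and 1191 genes were called, 468 and 1187 of them the same genes, and of the named genes Nfkbid alone lost its call (adjusted p = 0.0585). Deviations of same-numbered arrays were correlated at 0.0911, 0.122 and -0.0518, so the numbers were not taken to pair the samples.

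Of 382 called genes that were named or in a list, 288 kept their call under all 16 settings, 94 lost it under at least 1, and 0 reversed. The settings with the most losses were 75th percentile centring (43), leaving out granulocyte array 3 (40) and leaving out myelocyte array 3 (33). The cause was not tested. With 3 arrays per group, a difference that did not pass may still be real, and a gene near the dim level has a compressed difference.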
